A study of Rattus norvegicus with 4 samples.

Results

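The genes described here drive cell division and DNA copying, and they were followed in the rat striatum 16 h after gamma knife irradiation. A set of 39 genes was taken by name, and a probe of the array was assigned to a gene where the platform annotation gave it exactly 1 gene with that symbol or Entrez identifier. All 39 were measured, by 65 probes, out of 14878 genes on the array. They were divided by role into 8 genes of the G1 phase and the entry into S phase, 13 genes of DNA replication and nucleotide supply, and 18 genes of G2 and mitosis.

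The study used 4 adult male Wistar rats. The left striatum of the irradiated rats was targeted with a gamma knife, a device that converges many gamma beams on a small volume, under pentobarbital anaesthesia and in a fixation frame; the dose at the centre reached 60 Gy within 30 min, shaped by a 4 mm collimator. On 2 two-colour arrays RNA of the irradiated left striatum was set against RNA of the left striatum of control rats; on 2 others RNA of the un-irradiated right striatum of the same irradiated rats was compared with that of the right striatum of control rats. The second array of each side had the dyes exchanged. Apart from the word control, the sources used here do not describe the treatment of the control rats, nor whether RNA of several rats was pooled. Because source names and replicate number are identical for the 2 arrays of a side, they were counted as 1 replicate, so no difference was tested. The labels do not exclude that the 2 arrays came from different rats, in which case the spread given after ± would hold a part of the variation between animals. The sides come from the same rats and are not independent.

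All values are log2 of the experimental over the control RNA. Probes of a gene were averaged within each array, the 2 arrays of a side were then averaged, and the number after ± is the distance of either array from that mean. A gene was called higher or lower where both arrays exceeded 1.5-fold, a log2 ratio of 0.585, in that direction. The table holds ratios without spot brightness, so it does not show which genes were expressed well above background, nor can the striatal identity of the tissue be read from the level of its marker genes. In bulk tissue, fewer cells of a type and less RNA per cell cannot be told apart. Before any sign was turned, the arrays of a side correlated positively across all features (left r = 0.743, right r = 0.666). Rank correlations were 0.233 and 0.260. With array 2 turned, as used here, these become negative, so across all features the arrays of a side did not agree. The direction of the deposited values is not stated: array 2 was given the opposite sign, as a dye exchange requires, because the first 2 probes of a gene then correlated more closely (0.163 on the left and 0.0865 on the right over 5654 genes) than with the signs kept (0.0380 and 0.0411). If the values had been turned before deposit, the calls given below for the 39 genes would end. The log base is not stated either: values read as log2 in place of log10 would be smaller without changing sign, and of the calls on a side or between sides the one on Kif20b on the right would then remain.

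Cells pass from G1 into S phase when D-type cyclins with Cdk4, and then cyclin E with Cdk2, release E2F transcription factors, which switch on genes for copying DNA. The MCM helicase opens the double helix, the polymerase alpha-primase complex starts new strands, and thymidylate synthase and ribonucleotide reductase supply the building blocks. Later, cyclin B with Cdk1 starts mitosis, and Aurora and Polo kinases, kinesin motors and the spindle checkpoint separate the chromosomes. Most cells of the adult striatum are neurons that no longer divide, oligodendrocyte precursors are the main dividing cells of adult brain tissue, and neural progenitors divide in the subventricular zone beside it.

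Few of the 39 genes passed the rule. In the irradiated left striatum thymidylate synthase (Tyms) was 2.93-fold higher than in control and Pola2, a subunit of the polymerase alpha-primase complex, 3.65-fold lower, and the other 37 did not pass. In the un-irradiated right striatum 4 mitotic genes passed, the spindle protein gene Tacc3 and the kinase gene Aurkb upward and the kinesin gene Kif20b and the kinase gene Cdk1 downward, and 35 genes did not. By this rule the shares of all 14878 genes were 1.18% higher and 1.03% lower on the left, against 1.71% higher and 1.46% lower on the right. None of the 39 passed on both sides. The share of all genes that did so was not computed, and with so few calls this is no evidence of a difference between sides. Median values were -0.05 for G1/S, -0.15 for replication and -0.31 for mitotic genes on the left and -0.07, -0.12 and -0.20 on the right, beside 0.0011 and -0.011 for all genes.

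**Figure D1:**
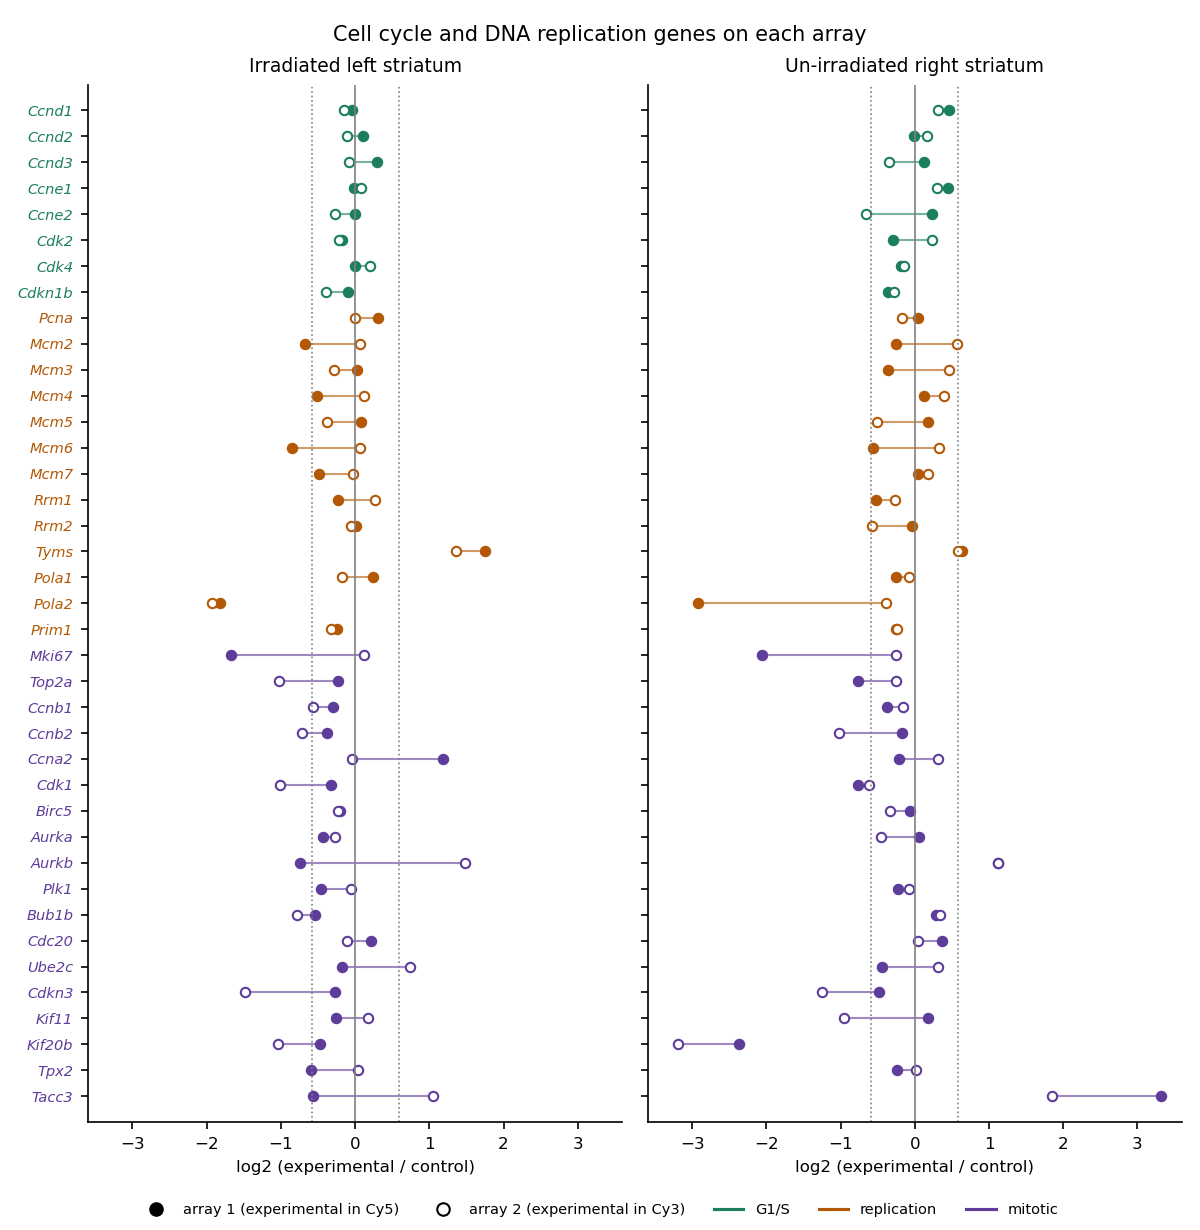
Log2 ratio of experimental over control RNA for each of the 39 genes on array 1 (filled) and array 2 (open) of each side, coloured by role; a line joins the arrays of a gene and dotted lines mark 1.5-fold (0.585). The G1/S genes lie between -0.66 and 0.47 on every array, whereas Tyms and Pola2 on the left and Tacc3, Aurkb, Kif20b and Cdk1 on the right stand outside the dotted lines on both arrays.

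The G1/S genes stayed close to control. None of the 8 passed on either side, and their means ran between -0.24 and 0.11 on the left side, and between -0.32 and 0.39 on the right side. The cyclin D1 gene Ccnd1, which links growth signals to the cell cycle, read -0.04 and -0.16 on arrays 1 and 2 of the left, and 0.47 and 0.31 on those of the right. Both left values thus lay below 0 and both right values above it, a difference of -0.48 ± 0.02 that did not reach the rule. Its relatives Ccnd2 and Ccnd3 had means of -0.0011 ± 0.10 and 0.11 ± 0.19 on the left and 0.08 ± 0.09 and -0.11 ± 0.24 on the right.

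Cyclin E1 (Ccne1), the partner of Cdk2, had a left mean of 0.03 ± 0.05 and a right mean of 0.38 ± 0.08. Ccne2, which encodes the other E-type cyclin, stood at -0.13 ± 0.14 and -0.22 ± 0.44. The kinase gene Cdk4 read 0.10 ± 0.10 and -0.17 ± 0.02, and Cdk2 -0.19 ± 0.02 and -0.03 ± 0.26. Of these, Cdk4 was above 0 on both left arrays and below 0 on both right arrays, with values too small to pass.

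Cdkn1b encodes p27, an inhibitor of Cdk2 that holds cells in the resting state. It read -0.09 and -0.39 on arrays 1 and 2 of the left, and -0.36 and -0.28 on those of the right, so all 4 values lay below control. Its 3 probes had means between -0.35 and -0.12 on the left side, and between -0.49 and -0.22 on the right side. The related inhibitor gene Cdkn1a (p21), which p53 switches on after DNA damage, was in contrast far above control on both sides, 2.01 ± 0.04 for the left striatum and 1.48 ± 0.44 for the right.

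Among the replication genes Tyms and Pola2 stood apart. Tyms encodes the enzyme that makes thymidylate, the building block found in DNA and not in RNA. It read 1.75 and 1.36 on arrays 1 and 2 of the left, and 0.63 and 0.58 on those of the right. All 4 values were above control, and the left mean of 1.55 ± 0.20 exceeded the right mean of 0.61 ± 0.03 by 0.95 ± 0.17, which passed the rule for a difference between sides (2.59% of all genes were higher on the left by it and 2.26% lower) but not at 2-fold, the smaller array being 0.778. On the right Tyms lay just outside the rule, with the lower array at 0.579, and it passed there at a mean of 0.61 once each array was centred on its median.

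Pola2 encodes the accessory B subunit of DNA polymerase alpha. It read -1.82 and -1.92 on left arrays 1 and 2, so the arrays lay close together far below control. On right arrays 1 and 2 it read -2.92 and -0.38, both below control but 1.27 to either side of their mean of -1.65, and it did not pass. The differences between sides went in opposite directions, 1.10 on array 1 and -1.54 on array 2. The partner genes in the same complex did not share its size: Pola1, the catalytic subunit, had means of 0.03 ± 0.21 and -0.17 ± 0.09, and the primase gene Prim1 -0.29 ± 0.04 and -0.25 ± 0.01. Both Tyms and Pola2 were read by 1 probe, so no second probe bears on their values.

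Promoters of Tyms and Pola2 are shown because these 2 replication genes passed in opposite directions on the left. Sequences are from RefSeq on GRCr8 and cover the 250 bases before the annotated start of the gene, 5′ to 3′ on the gene's strand; Tyms is at chr9:120776084-120776333, minus strand, and Pola2 at chr1:212680543-212680792, minus strand. Capitals mark any match, on either strand, to the E2F motif (TTTCCCGC, TTTGGCGC, TTTCGCGC or TTTGCCGC), the CHR motif of mitotic genes (TTTGAA) or the CCAAT box (CCAAT).
Tyms: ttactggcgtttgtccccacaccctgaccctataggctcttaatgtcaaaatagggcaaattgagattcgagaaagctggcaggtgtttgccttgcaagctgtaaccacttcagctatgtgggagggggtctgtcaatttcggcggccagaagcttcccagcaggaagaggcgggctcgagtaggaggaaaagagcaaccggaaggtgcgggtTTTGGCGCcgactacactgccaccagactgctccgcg
Pola2: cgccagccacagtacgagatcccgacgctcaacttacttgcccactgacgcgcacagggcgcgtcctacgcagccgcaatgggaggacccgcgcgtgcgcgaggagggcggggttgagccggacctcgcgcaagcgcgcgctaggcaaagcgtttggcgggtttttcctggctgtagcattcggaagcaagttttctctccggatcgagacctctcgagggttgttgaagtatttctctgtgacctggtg
The Tyms window holds 1 E2F match, TTTGGCGC at 37 to 30 bases before the start, and the Pola2 window holds no exact match to these letters. The Pola2 window does hold tttggcgg, which differs from TTTGGCGC in the last base, and near matches were not counted. An E2F match was found in 6 of the 11 replication genes with a promoter in the table (Mcm2, Mcm5, Mcm6, Mcm7, Pola1 and Tyms), against 1.73% of all 33469 promoters. In Mcm2, Mcm5 and Mcm6 matches overlap each other on opposite strands, and in Mcm7 a match shares its last base with a CCAAT box. Tyms was thus the member of these 6 that passed, and the match is a description of sequence and not of binding.

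The 6 subunits of the MCM helicase all had means below 0 on the left, from -0.39 to -0.13, and none passed. For 5 of the 6 the arrays went opposite ways there, as they did for 54% of all genes. Mcm6 read -0.85 and 0.07 on left arrays 1 and 2, Mcm2 -0.67 and 0.07, and Mcm4 -0.52 and 0.11. Array 1 thus placed these 3 subunits below control and array 2 slightly above it. Mcm3 and Mcm5 went the other way, at 0.03 and -0.28 and at 0.07 and -0.38. The subunit with the same sign on both arrays was Mcm7, at -0.48 and -0.03. On the right the means of the 6 ran from -0.17 to 0.26.

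Pcna, the sliding clamp that holds polymerases on DNA and that p53 can also raise, read 0.30 and 0.0038 on arrays 1 and 2 of the left, and 0.04 and -0.18 on those of the right. Its mean was above control on the left, at 0.15 ± 0.15, and at -0.07 ± 0.11 on the right, with neither near the rule. The ribonucleotide reductase subunit genes Rrm1 and Rrm2, whose enzyme makes deoxyribonucleotides, had means of 0.02 ± 0.25 and -0.02 ± 0.04 on the left and -0.39 ± 0.13 and -0.31 ± 0.27 on the right. Both were below 0 on both right arrays, although the 4 probes of Rrm1 ranged there from -1.46 to 0.52.

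**Figure D2:**
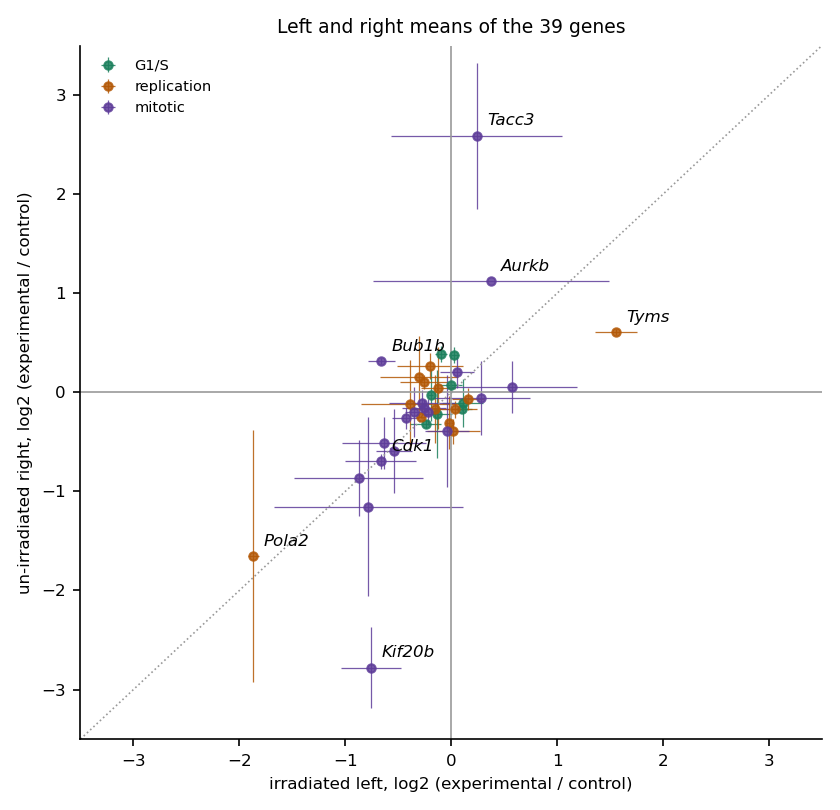
Mean log2 ratio in the irradiated left striatum (x axis) against the un-irradiated right striatum (y axis) for the 39 genes, with bars reaching to the values of the 2 arrays and the genes that passed on a side or between sides named; the dotted line marks equal values. Tyms lies below the line (1.55 left, 0.61 right), Kif20b far below it (-0.76 left, -2.78 right) and Tacc3 far above it (0.24 left, 2.59 right).

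The median of the mitotic genes was lower than those of the other classes on both sides, although none of the 18 passed on the left. On the left 10 of the 18 were below 0 on both arrays and 0 were above 0 on both, beside 23% of all genes below and 23% above. Of the 8 G1/S genes 3 were below on both arrays, and of the 13 replication genes likewise 3. On the right 9 of the 18 mitotic genes were below 0 on both arrays and 4 above, beside 21.6% and 21.3% of all genes. The mitotic median was -0.35 on left array 1 and -0.17 on left array 2, and -0.22 and -0.20 on the right arrays. G1/S medians were -0.01 and -0.13 on the left arrays, so the gap to G1/S genes lay mostly on array 1. On right array 1 the replication median was lower than the mitotic one, at -0.25. The left arrays of mitotic genes had a median distance from their mean of 0.298, beside 0.099 for G1/S genes.

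Cdk1, the kinase that starts mitosis, read -0.33 and -1.01 on arrays 1 and 2 of the left, and -0.77 and -0.62 on those of the right. All 4 values were below control. The means were near each other, -0.67 ± 0.34 and -0.70 ± 0.07, but the rule was met on the right alone, where the arrays lay closer, and the difference between sides was 0.03 ± 0.41. Its cyclin partners were below 0 on every array as well, Ccnb1 with means of -0.43 ± 0.13 and -0.26 ± 0.11 and Ccnb2 with -0.54 ± 0.17 and -0.59 ± 0.43. None of these passed.

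Besides Cdk1 and the B cyclins, 5 mitotic genes were below 0 on all 4 arrays. The share of all genes below 0 on all 4 arrays was not computed, so this count has no background beside it. Top2a, the topoisomerase that untangles chromosomes, read -0.24 and -1.03 on arrays 1 and 2 of the left, and -0.77 and -0.25 on those of the right. Cdkn3, a phosphatase acting on cyclin-dependent kinases, had means of -0.88 ± 0.61 and -0.86 ± 0.38. Survivin (Birc5), a subunit of the chromosomal passenger complex, had -0.22 ± 0.01 and -0.20 ± 0.14, and the Polo kinase gene Plk1 -0.26 ± 0.21 and -0.16 ± 0.07. The remaining gene was Kif20b.

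Kif20b, a kinesin of the late mitotic spindle and of cytokinesis, was the member furthest below control on the right. It read -0.47 and -1.04 on arrays 1 and 2 of the left, and -2.37 and -3.19 on those of the right. The arrays of the 2 sides did not overlap: the right mean of -2.78 ± 0.41, or 6.86-fold lower, lay below the left mean of -0.76 ± 0.28 by 2.02 ± 0.13, and the difference between sides passed. Tacc3, which stabilises spindle microtubules, was furthest above control on the right, at 3.32 and 1.85 on arrays 1 and 2, a mean of 2.59 ± 0.73 or 6.01-fold. On the left its arrays went opposite ways, -0.57 and 1.05. The difference of -2.35 ± 1.54 between sides passed at 1.5-fold, but its smaller array was -0.81 and it no longer passed at 2-fold.

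Aurkb, the Aurora kinase of the chromosomal passenger complex, read 1.12 and 1.13 on right arrays 1 and 2, a mean of 1.12 ± 0.0026 or 2.18-fold. On left arrays 1 and 2 it read -0.74 and 1.49, opposite ways, so the left gave no direction. Aurka, the related centrosomal kinase, had -0.35 ± 0.08 on the left and -0.20 ± 0.25 on the right. Birc5, the partner of Aurkb, did not share its value on the right, as given above. Kif20b, Tacc3, Aurkb and Cdk1 were each read by 1 probe.

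Bub1b encodes the spindle checkpoint kinase BubR1. It read -0.54 and -0.79 on arrays 1 and 2 of the left, and 0.28 and 0.34 on those of the right. Both left arrays thus lay below control and both right arrays above it, and the difference of -0.97 ± 0.15 passed while neither side did. The call rests on 1 of its 3 probes, which had a mean of -1.74 on the left and 1.19 on the right, and it ended with the median over probes.

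Mki67, the proliferation marker Ki-67, read -1.68 and 0.11 on arrays 1 and 2 of the left, and -2.06 and -0.25 on those of the right. Array 1 was far below control and array 2 near it on both sides, so its means of -0.78 ± 0.89 and -1.15 ± 0.90 did not pass. The cyclin A2 gene Ccna2, which acts in S phase and G2, read 1.19 and -0.04 on left arrays 1 and 2, and its 2 probes had left means of -0.12 and 1.27. The anaphase-promoting complex genes Cdc20 and Ube2c had 0.06 ± 0.16 and 0.28 ± 0.46 on the left and 0.20 ± 0.17 and -0.06 ± 0.37 on the right. The spindle genes Kif11 and Tpx2 had -0.04 ± 0.21 and -0.28 ± 0.31 on the left and -0.39 ± 0.57 and -0.11 ± 0.13 on the right.

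Promoters of the mitotic genes that passed on the right or between sides are shown with the same marking, to compare genes that moved in opposite directions; Aurkb has none in the table. On GRCr8 Cdk1 is at chr20:19265043-19265292, plus strand, Kif20b at chr1:241840766-241841015, plus strand, Tacc3 at chr14:81289699-81289948, minus strand and Bub1b at chr3:126016817-126017066, plus strand.
Cdk1: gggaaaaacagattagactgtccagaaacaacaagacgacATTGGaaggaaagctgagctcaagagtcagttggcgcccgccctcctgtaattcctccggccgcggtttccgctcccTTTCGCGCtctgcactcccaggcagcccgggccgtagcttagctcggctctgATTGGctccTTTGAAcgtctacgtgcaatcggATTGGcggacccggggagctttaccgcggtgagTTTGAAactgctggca
Kif20b: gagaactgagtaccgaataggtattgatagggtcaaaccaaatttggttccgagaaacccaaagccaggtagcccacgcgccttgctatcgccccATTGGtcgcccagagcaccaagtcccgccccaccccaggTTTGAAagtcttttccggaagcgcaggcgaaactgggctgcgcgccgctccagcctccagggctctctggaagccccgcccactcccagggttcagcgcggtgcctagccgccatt
Tacc3: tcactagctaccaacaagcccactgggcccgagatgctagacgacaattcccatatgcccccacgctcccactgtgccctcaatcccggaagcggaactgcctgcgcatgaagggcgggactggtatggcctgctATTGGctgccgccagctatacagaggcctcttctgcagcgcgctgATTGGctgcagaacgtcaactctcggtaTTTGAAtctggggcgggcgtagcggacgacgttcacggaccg
Bub1b: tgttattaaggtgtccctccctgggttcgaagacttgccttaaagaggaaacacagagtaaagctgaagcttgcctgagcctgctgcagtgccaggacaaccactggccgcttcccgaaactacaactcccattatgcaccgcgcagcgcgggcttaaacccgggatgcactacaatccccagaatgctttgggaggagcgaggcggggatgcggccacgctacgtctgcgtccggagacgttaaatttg
The Cdk1 window holds 1 E2F match, 3 CCAAT boxes read on the opposite strand as ATTGG, and 2 CHR matches. Kif20b and Tacc3, which lay furthest below and furthest above control on the right, both hold a CHR match with a CCAAT box before it, and Bub1b holds no match to these letters. A CHR match was found in 9 of 14 mitotic genes with a promoter, against 1 of 11 replication genes, 0 of 5 G1/S genes and 16.2% of all promoters. CCAAT boxes were found in 12 of 14 mitotic, 7 of 11 replication and 3 of 5 G1/S genes, against 34% of all.

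**Figure D3:**
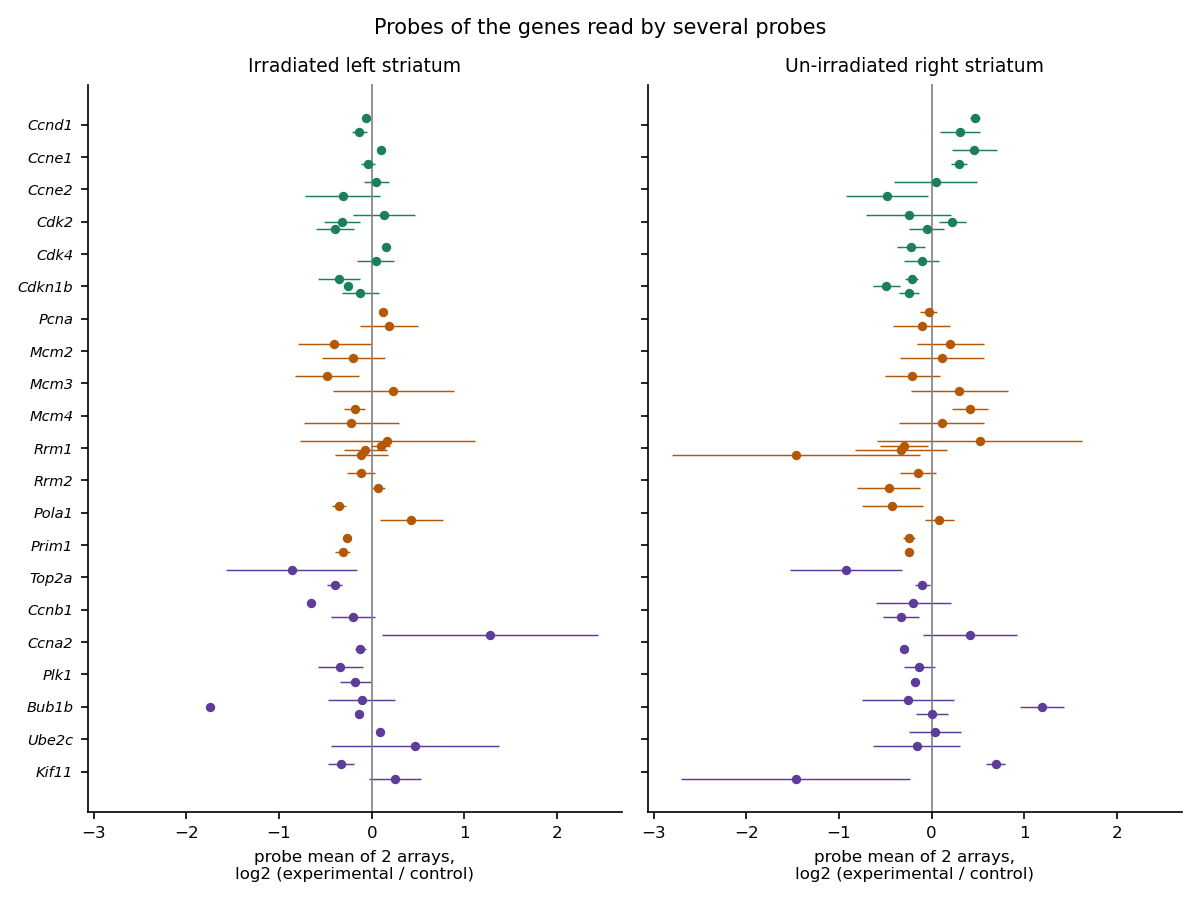
Mean log2 ratio of each probe of the 21 genes read by 2 to 4 probes, in the irradiated left and the un-irradiated right striatum, with bars reaching to the values of the 2 arrays. Probes of Prim1, Ccnd1 and Plk1 lie close together, whereas those of Bub1b are 1.63 apart on the left and those of Kif11 2.16 apart on the right.

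Probes gave a view of how far a single value can be relied on. Of the 39 genes 18 had 1 probe, 17 had 2, 3 had 3 and 1 had 4. Among the 21 with several, all probes of a gene had means of 1 sign in 12 on the left and in 12 on the right. No such share was computed for all genes, and some signs match by chance, so these counts alone do not show that probes agreed. Across the 5654 genes with several probes, the first 2 probes correlated only weakly (left r = 0.163, right r = 0.0865). On the right the probes of Kif11 stood at -1.47 and 0.69, and those of Prim1 at -0.25 and -0.24. Of the 7 genes that passed on a side or between sides, 6 were read by 1 probe. Members had a median distance of the arrays from their mean of 0.196 on the left and 0.165 on the right, beside 0.166 and 0.188 for all genes.

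**Figure D4:**
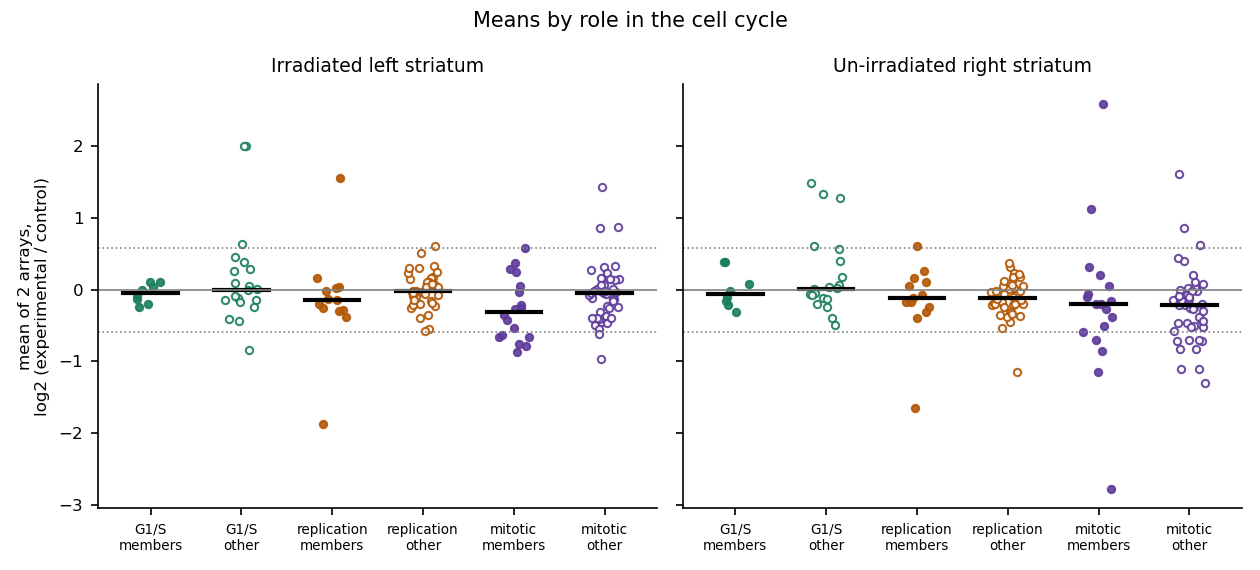
Mean log2 ratio of each gene by role, for the 39 genes (filled) and the other measured cell cycle genes (open), in the irradiated left and the un-irradiated right striatum; bars are medians and dotted lines mark 1.5-fold. The mitotic members have a median of -0.31 on the left, where the other mitotic genes have -0.05, and on the right the medians are -0.20 and -0.22.

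A longer list of 121 cell cycle genes outside the 39, of which 104 were measured, was read by the same rule. On the left 4 were higher and 1 lower, beside 1.18% and 1.03% of all genes. On the right 3 were higher and 2 lower, beside 1.71% and 1.46% of all genes. The 104 genes had medians of -0.03 and -0.13. Of 38 other replication genes, among them the origin recognition complex and the clamp loader, 0 passed on either side or between sides, with medians of -0.02 and -0.12. The 46 other mitotic genes had medians of -0.05 and -0.22. On left array 1 their median was -0.04, beside -0.35 for the 18 members, and on left array 2 both medians were -0.17. The lower left median of the members thus came from array 1, and the 2 groups were alike on array 2.

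Besides Cdkn1a, cyclin G1 (Ccng1), another p53 target, passed upward on both sides, at 2.0 ± 0.01 and 1.33 ± 0.02. The microtubule depolymerase gene Kif2c was higher on the left at 0.85 ± 0.09, and so was Nusap1, a spindle protein gene, at 0.87 ± 0.23. The spindle checkpoint kinase gene Ttk was lower on the left at -0.97 ± 0.30. On the right Cdk6, a partner of D-type cyclins, was higher at 1.28 ± 0.48, whereas the phosphatase gene Cdc14a and the chromatin protein gene Hmgb2 were lower at -0.71 ± 0.04 and -0.70 ± 0.08.

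Between sides 8 of the 104 passed, 4 in each direction, beside 2.59% of all genes higher on the left and 2.26% lower. Lower on the left than on the right were Cdk6 (-1.23 ± 0.26), E2f7 (-1.01 ± 0.10), a repressor of E2F targets, the histone gene Cenpa (-1.11 ± 0.12), whose product marks centromeres, and Rbl1 (-1.46 ± 0.50), a relative of the retinoblastoma protein. Rbl1 read -0.52 and -1.17 on arrays 1 and 2 of the left, and 0.44 and 0.78 on those of the right. Higher on the left were Ccng1 (0.67 ± 0.03), Nusap1 (2.17 ± 1.36), Ckap2 (2.14 ± 0.96), which encodes a spindle-associated protein, and the spindle midzone gene Prc1 (1.33 ± 0.55). Nusap1 and Ckap2 were read by 1 probe and their right arrays lay far apart, at 0.29 and -2.89 and at 1.11 and -2.53. Cdk6, E2f7, Cenpa and Rbl1 were also read by 1 probe. The arrays of Cenpa went opposite ways on both sides, 0.51 and -1.01 on the left and 1.75 and -0.02 on the right. Those of Cdk6 (-0.70 and 0.78) and E2f7 (-0.90 and 0.02) did so on the left. The number after ± for a difference does not show this spread within a side.

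Markers of other cells moved on the same arrays, and their part in the values above was not tested. On the left 5 of 10 measured oligodendrocyte precursor markers were lower and 0 higher, among them Pdgfra at -2.45 ± 0.13, and the median of the list was -0.82. On the right 1 of the 10 was lower, Pdgfra again at -0.90 ± 0.07, and the median was -0.58. Of 11 neural progenitor markers 1 was lower on the left (Prom1, -0.65 ± 0.05) and 0 passed on the right, with medians of -0.07 and -0.12. Of 11 microglia markers 3 were lower on the left and 1 on the right (medians -0.44 and -0.18). Among all genes 1.03% were lower on the left and 1.46% on the right.

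The right samples also differed in markers of striatal projection neurons, cortex and meninges, and less in those of the choroid plexus. There 7 of 11 markers of striatal projection neurons were lower (median -0.74), 3 of 9 cortical markers higher (0.26), 4 of 10 meningeal markers higher (0.45) and 1 of 8 choroid plexus markers higher (0.05). On the left 1 projection neuron, 1 cortical and 3 meningeal markers were lower and 0 choroid plexus markers passed, with medians of -0.36, -0.06, -0.51 and 0.08. The right values of Tacc3, Aurkb, Kif20b and Cdk1 come from the same arrays as these marker values. Summed levels of these lists cannot be given from ratios.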

How the data were processed

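The authors used Agilent Feature Extraction 8.1, per the submitters' processing notes, with settings not stated there. The deposited table holds 1 value for each of 43628 features on each of 4 arrays. Each deposited value was taken to be a log10 ratio of Cy5 over Cy3, the usual form of that software, and converted to log2; base, centring and direction are not stated. Medians as deposited were 0.00418 and 0.00444 (left arrays) and 0.00832 and 0.0111 (right arrays).

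Array 2 of each side was sign-reversed, and probes were averaged per gene, in Python with pandas. Of the features 23535 had 1 gene in the supplied platform annotation, which can be old, with 48 having several and 20045 none; symbols followed Entrez identifiers in RefSeq (GRCr8). The 1.5-fold rule was tested on simulated arrays with known changes well past the threshold, so changes near it were not covered. With 1 replicate per side no test could be made, and precision is limited by the number of arrays.

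Every member was nameable, with all array values given for those passing the rule and for Mki67, Top2a, Cdk1, Pcna, Ccnd1 and Cdkn1b; of other cell cycle genes, those passing were named. Members and lists (other cell cycle genes, and markers of precursors, progenitors, microglia, projection neurons, cortex, meninges and choroid plexus) were chosen with earlier results of these data known. The 8 alternatives are given in the closing section.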

Additional observations from a re-analysis of the deposited data

Results flagged for a closer look

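In 3 of the 143 cell cycle genes measured (the 39 and the 104 others) both arrays of the left lay on one side of control and both arrays of the right on the other, with a difference past 1.5-fold on both arrays. The share of all genes that met this rule was not computed. With 1 replicate per side the differences were not tested. They were -0.97 for Bub1b, -1.46 for Rbl1 and 1.33 for Prc1, on the log2 scale, left minus right. Rbl1 was read by 1 probe, Prc1 by 2 and Bub1b by 3. The Bub1b difference rests on 1 of its 3 probes.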

How the results depend on the processing

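Of 90 recomputed counts and class medians, 49 stayed within 1.5 times of the count, or within the distance between the arrays for a median, and 41 did not. With array 1 alone 2 genes were higher and 6 lower on the left, 5 lower on the right, and 4 higher and 4 lower on the left than on the right; right medians were 0.061 (G1/S), -0.25 (replication) and -0.22 (mitotic). With array 2 alone 4 were higher and 7 lower on the left, 6 lower on the right and 5 lower on the left than on the right; left medians were -0.13, -0.027 and -0.17 in the same order, and the right G1/S median was 0.0082. A 1-array rule is looser by construction. RefSeq mRNA probes alone moved the right G1/S median to -0.13, and the median over probes left 1 gene lower on the left than on the right. At 2-fold 1 was lower on the right, and 1 was higher and 0 lower on the left than on the right. Centring each array moved none of these results, and Tyms joined the genes higher on the right. Of 36 side values and differences of the 12 genes given in full, 35 with RefSeq mRNA probes, 35 with centring, 33 with the median over probes, 32 with array 1 and 28 with array 2 stayed within the distance of the arrays.

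If the values had been turned before deposit, 0 genes were higher on the left, 0 higher and 0 lower on the right, and 1 higher and 0 lower between sides; left medians were 0.080, 0.042 and 0.068, and right ones 0.029 (G1/S) and -0.016 (mitotic). The 1 gene lower on the left would then be Aurkb in place of Pola2. Of the 36 values 17 changed sign, 5 of them among values that had passed: Pola2 on the left (0.052), Aurkb on the right (-0.0026), Kif20b on the right (0.41) and between sides (-0.13), and Bub1b between sides (0.15). Read as log2, the values gave 0 higher and 0 lower on the left, 0 higher and 1 lower on the right, and 0 and 0 between sides, with medians of -0.046 (replication) and -0.094 (mitotic) on the left and -0.020 (G1/S) and -0.060 (mitotic) on the right; this scales every value down and turns none. No paired analysis was possible because each side has 1 replicate. Signal over background could not be assessed from ratios.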
